A study of Mus musculus with 18 samples.

Results

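The cells described here were adult muscle cells in which at least 1 transcript of *Myod1* was counted. They were chosen in 1 droplet library of cells from the tibialis anterior of Pax7-ZsGreen mice aged 3 months, a strain in which a green fluorescent protein reports *Pax7* and marks satellite cells, the resident stem cells of skeletal muscle. Of 580 barcodes that reached 3368 unique molecular identifiers (UMIs, 1 per captured transcript), 579 were kept as cells and 417 of them held at least 1 *Myod1* UMI. The remaining 162 cells held none. These 417 cells were 72.0% of the adult cells (exact 95% interval 68.2 to 75.6%, counting error only), and the adult cells were kept beside 2931 cells of an iPax3 library, 3510 in all.

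The series also holds iPax3 myogenic progenitors, made from mouse ES cells by sorting Vcam1-positive, Flk1-negative cells from embryoid bodies and expanding them with doxycycline and bFGF for 3 passages. Adult cells were measured in a single sample, the number of mice behind it was not given in the sources used here, and cells of 1 sample are not replicates of a condition. Every ratio below therefore compares cells of the same library, carries an exact 95% interval that covers counting error only, and has no p-value. The labels name the strain, tissue and age, and no gate of the sort. A further matrix, labelled as a second iPax3 sample, held the barcodes of all 579 adult cells beside those of the iPax3 cells, and no comparison here uses it.

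*Myod1* encodes MyoD, a basic helix-loop-helix transcription factor that binds E-box sites and drives muscle gene expression. In textbook accounts quiescent satellite cells hold *Pax7* and often *Myf5*, and MyoD is gained as they leave quiescence, before *Myog* marks commitment to differentiation. *Fos* and *Jun* encode subunits of the AP-1 factor, are immediate early genes, and are known to be induced while muscle is taken apart. In GRCm38 (GENCODE M21) *Myod1* lies on the plus strand of chromosome 7 from 46376474 to 46379099, *Myf5* on the minus strand of chromosome 10 from 107482908 to 107486134, *Fos* on the plus strand of chromosome 12 from 85473890 to 85477273, and *Jun* on the minus strand of chromosome 4 from 95049034 to 95052222.

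*Myod1* counts per cell were spread widely. One UMI was counted in 145 cells, 2 to 3 in 129 cells, 4 to 7 in 88 cells and 8 or more in 55 cells. The 55 cells of the last class were 9.50% of all adult cells and held 47.1% of all 1709 *Myod1* UMIs, while the 145 cells with a single UMI held 8.48%. The highest count was 34 UMIs in a cell of 19082 UMIs in total, and the highest level was 2616 CPM (UMIs of a gene scaled to a total of 1000000) in a cell with 30 *Myod1* UMIs of 11467. Both of these cells held *Pax7* UMIs, 5 and 1, and neither held a *Myog* UMI.

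The choice by 1 UMI followed depth closely. Median total UMIs were 12640 (3394 to 97098) in cells with *Myod1* and 6915.5 (3395 to 38262) in cells at 0, with 2358 and 1683 genes per cell. Mitochondrial transcripts took a median 3.75% and 3.77% of UMIs, so that this sign of RNA quality was alike. The share of cells with a *Myod1* UMI was 45.5% in the shallowest quartile of cells (66 of 145), 66.0% in the second (95 of 144), 84.8% in the third (123 of 145) and 91.7% in the deepest (133 of 145). When every cell was thinned at random to 3300 UMIs, 241 cells kept a *Myod1* UMI, 41.6% (37.6 to 45.8%), and the quartiles held 55, 56, 76 and 54 of them. In the thinned counts the shallowest and deepest quartiles, at 37.9% and 37.2%, no longer stood apart.

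**Figure D1:**
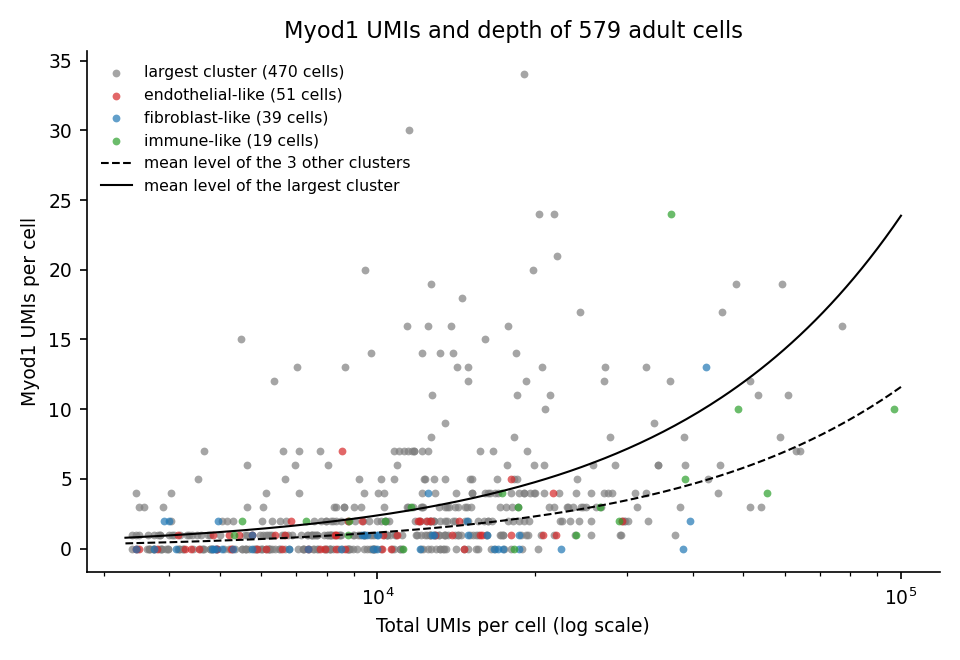
Each point is 1 of 579 adult cells, with its total UMIs on a log axis and its *Myod1* UMIs on a linear axis, coloured by cluster. The lines give the *Myod1* count expected at the mean level of the largest cluster (239 CPM) and of the 3 other clusters (116 CPM); counts reach 34 UMIs, and most cells far above both lines belong to the largest cluster.

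Just outside and just inside the threshold the cells were close. The 145 cells with exactly 1 *Myod1* UMI had a median of 9419 UMIs and a *Myod1* level of 93.8 CPM. *Fos* stood at 3591 CPM in them against 3529 CPM in cells at 0, *Jun* at 407 against 426 CPM, and *Pax7* at 151 against 137 CPM. Past 1.5-fold, 9 of 1783 genes were higher (0.505%) and 16 lower (0.897%) in the cells with 1 UMI.

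To see which cells of the sort held *Myod1*, the 579 cells were clustered on all genes except *Myod1*. An endothelial-like cluster of 51 cells was led by genes such as *Cdh5*, the cadherin of endothelial junctions, and *Cldn5*, a tight junction claudin, and had 15 of 16 endothelial markers at 2-fold or more over the other cells. A fibroblast-like cluster of 39 cells had 13 of 16 fibroblast markers at 2-fold or more, among them the collagen gene *Col1a2* and the proteoglycan genes *Dcn* and *Lum*, and 5 of 5 measured tendon markers. An immune-like cluster of 19 cells had 11 of 12 immune markers at 2-fold or more, among them *Cd74*, the invariant chain of antigen presentation. The remaining 470 cells formed the largest cluster. Of 25 satellite cell markers, 21 stood at or above the other cells there with a median fold of 1.22, and none reached 2-fold, so that this cluster is called by its size and not by a cell type.

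*Myod1* was present in every cluster. A *Myod1* UMI was counted in 352 of 470 cells of the largest cluster (74.9%, 70.7 to 78.8%), in 30 of 51 endothelial-like cells (58.8%, 44.2 to 72.4%), in 18 of 39 fibroblast-like cells (46.2%, 30.1 to 62.8%) and in 17 of 19 immune-like cells (89.5%, 66.9 to 98.7%). Median depths were 11196.5, 8335, 9797 and 18212 UMIs in the same order, and the deepest cluster had the highest share. After thinning the shares were 44.5%, 33.3%, 20.5% and 36.8%, and over the 3 other clusters together 29.4% (21.0 to 38.8%) against 39.9 to 49.1% for the largest. At equal depth the intervals of the largest cluster and of the 3 others pooled did not overlap. Taken singly, those of endothelial-like (20.8 to 47.9%) and immune-like cells (16.3 to 61.6%) overlapped that of the largest cluster. That of fibroblast-like cells (9.30 to 36.5%) did not. The 29.4% is the share in clusters named by markers of other cell types, and the source of the *Myod1* UMIs in them was not tested.

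**Figure D2:**
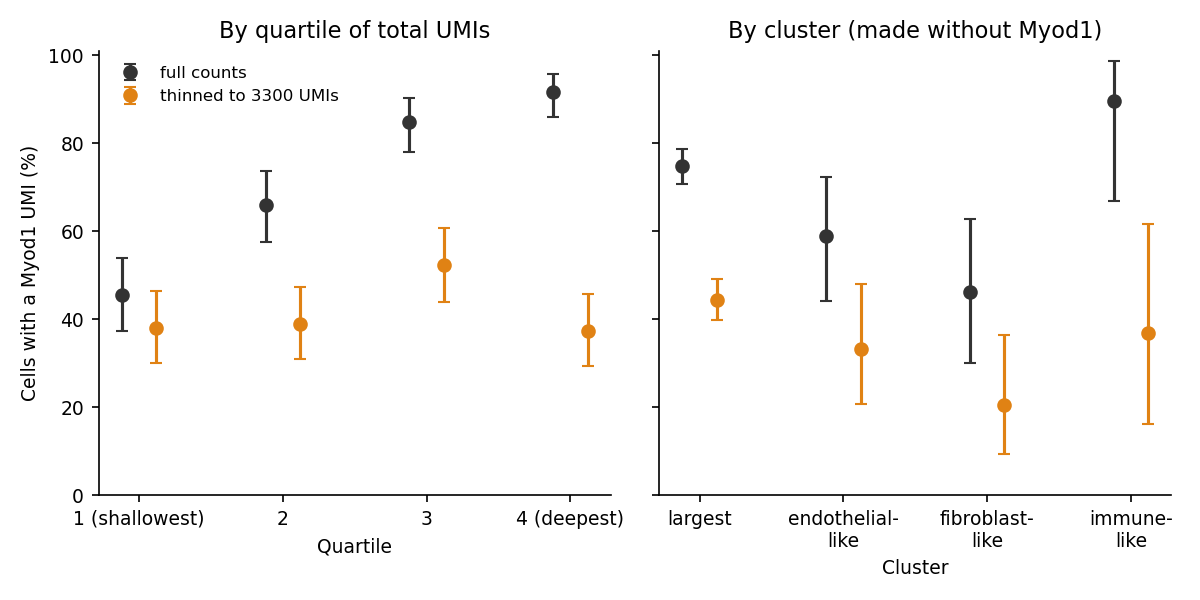
Share of adult cells with a *Myod1* UMI by quartile of total UMIs (left) and by cluster (right), with exact 95% intervals for counting error, in full counts and after thinning to 3300 UMIs. The share climbs from 45.5% to 91.7% with depth in full counts and lies between 37.2% and 52.4% after thinning.

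Levels gave the same order. Summed over cells, *Myod1* stood at 239 CPM in the largest cluster (227 to 251) and at 116 CPM (99.2 to 135) in the 3 others together. Among those it was 104 CPM (77.8 to 137) in endothelial-like, 79.4 CPM (56.2 to 109) in fibroblast-like and 165 CPM (131 to 206) in immune-like cells. The intervals of endothelial-like and fibroblast-like cells overlapped, and so did those of endothelial-like and immune-like cells. Barcodes with 1 to 100 UMIs, which hold free RNA and no cell, carried 75 *Myod1* UMIs among 491093, or 153 CPM (120 to 191). By size these were 205 CPM (152 to 272) in barcodes of 1 to 10 UMIs, 103 CPM (66.2 to 154) at 11 to 50 and 98.7 CPM (11.9 to 356) at 51 to 100, the last from 2 *Myod1* UMIs. The pooled level rests mostly on the smallest barcodes, which held 49 of the 75 *Myod1* UMIs.

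Other satellite cell genes stood in the empty barcodes at levels near those of the cells. *Pax7* was 179 CPM there, 151 CPM in the largest cluster and 125 CPM in the 3 others. *Chodl*, a membrane lectin gene enriched in quiescent satellite cells, was 195, 160 and 83.7 CPM, and the 25 satellite cell markers summed to 3902, 3833 and 3005 CPM. Myofibre transcripts were as widespread: *Acta1*, the skeletal actin of fibres, stood at 426 CPM in empty barcodes, 297 CPM in the largest cluster and 272 CPM in the others. The number of *Myod1* UMIs per *Pax7* UMI was 0.85 in empty barcodes, 0.87 in endothelial-like and 0.64 in fibroblast-like cells, 1.25 in immune-like cells and 1.58 in the largest cluster. The part of free RNA in single cells with few *Myod1* UMIs was not tested.

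What set *Myod1* apart from *Pax7* in the largest cluster was its unevenness. An index of dispersion, the mean squared deviation from the count expected at a cell's depth over that count, is near 1 where counting alone spreads the values. It was 5.79 for *Myod1*, 1.11 for *Pax7*, 1.16 for *Chodl*, 1.22 for *Myf5* and 1.38 for *Des*, the intermediate filament desmin of muscle cells. Among 708 genes at 100 to 600 CPM in this cluster *Myod1* ranked 15th, where the median index was 1.06. The 12 genes at the top were the chemokine genes *Ccl21a* and *Ccl5* and contractile or muscle metabolic genes such as *Acta1* (26.9) and *Ckm* (9.17). *Asb5*, a satellite cell marker, had an index of 3.45. In the 3 other clusters the index of *Myod1* was 2.22, and by depth quartile it was 1.03, 2.01, 0.77 and 5.06 there. In the largest cluster it rose from 3.87 in the shallowest to 6.98 in the deepest quartile. Values from unlike levels or depths are therefore not directly comparable, and *Myf5*, at 48.1 CPM, lay below the range of the 708 genes.

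**Figure D3:**
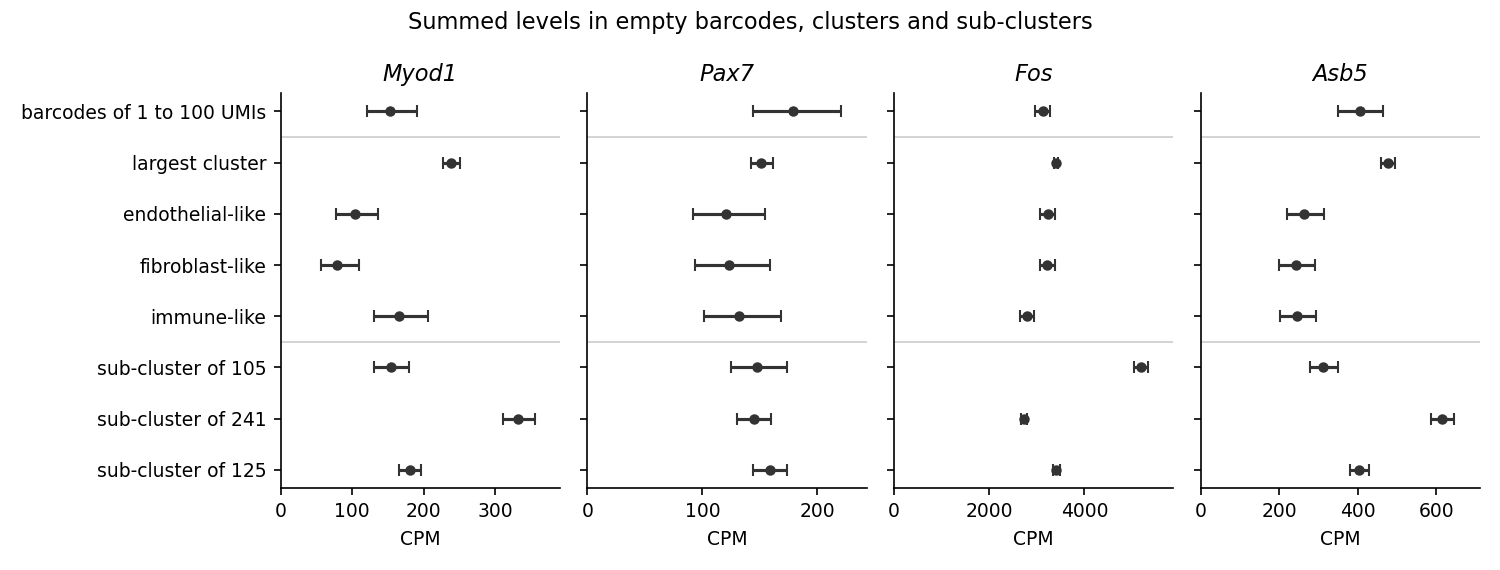
Summed CPM of *Myod1*, *Pax7*, *Fos* and *Asb5* with exact 95% Poisson intervals (counting error only) in barcodes of 1 to 100 UMIs, in the 4 clusters and in 3 sub-clusters that divide the largest cluster. *Myod1* is highest in the sub-cluster of 241 cells at 333 CPM, where *Fos* is lowest at 2727 CPM, while *Pax7* is 145 to 159 CPM in all 3 sub-clusters.

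At a finer resolution, chosen after the data were seen and again without *Myod1*, the largest cluster parted into groups of 105, 241 and 124 of its cells, the last in a cluster of 125. *Myod1* stood at 154 CPM (130 to 180) in the group of 105, 333 CPM (311 to 356) in the group of 241 and 181 CPM (165 to 197) in the cluster of 125. Thinned shares of cells with *Myod1* were 40.0%, 49.8% and 38.4%. The group of 105 was led by stress and immediate early genes: *Fos* was 5190 CPM there against 2727 CPM in the group of 241, *Hspa1a*, an inducible chaperone, 4699 against 1908 CPM, and *Hes1*, a Notch target, 134 against 29.3 CPM. The group of 241, with the highest *Myod1*, was led by *Eif3j1*, *Asb5* (616 CPM), the nucleolar helicase gene *Ddx21* (168 CPM) and *Hnrnpa3* (207 CPM). The cluster of 125 was deeper, with a median of 19073 UMIs, and was led by *Ccl21a* and fibre genes such as *Pvalb* and *Acta1*. *Pax7* was 148, 145 and 159 CPM in the 3 groups, with overlapping intervals.

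The study's own software had split the adult cells in 2. In the authors' deposited table *Myod1* had a log2 fold change of 0.97 for their cluster 1 over their cluster 2, and *Pax7* one of 0.13. For cluster 2 the authors' deposited table gave log2 fold changes of 2.33 for *Cdh5* and 2.15 for *Cldn5*, and of 0.16 for *Fos*. These endothelial genes and lower *Myod1* thus stood on the same side of that split. The fibroblast markers *Col1a2* and *Dcn* were divided, with *Col1a2* higher in cluster 1 (0.59) and *Dcn* in cluster 2 (0.27).

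Cells with a *Myod1* UMI were then compared with cells at 0 across all genes. UMIs were summed over the 417 and the 162 cells, and a gene was counted past 1.5-fold where the higher group reached 50 CPM and both groups together 50 UMIs. Of 1762 genes, 4 were higher (0.227%) and 21 lower (1.19%) in cells with *Myod1*, and the median log2 ratio was -0.01. The 4 higher genes, named after their values were seen, were *H2-DMa*, which loads peptides on MHC class II (log2 ratio 1.08), *Baiap2* (0.78), *Ubxn6* (0.73) and *Fdps*, of the mevalonate pathway (0.59), all between 50 and 100 CPM in the higher group. *H2-DMa* was also a leading gene of the immune-like cluster, at 338 CPM against 46.8 CPM in the other cells. Its log2 ratio was 0.73 within the largest cluster.

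Of the 21 genes lower in cells with *Myod1*, 10 belonged to the marker lists of other cell types or to the extracellular matrix list, where 2.84% of all 1762 genes did. Between clusters, 15 of the 21 stood higher by 1 or more on the log2 scale in the 3 other clusters than in the largest. This held for 3.01% of all genes, and *Anapc16* (0.06) and *Nisch* (0.06) were level. Some of the 21, such as *Lum* (25.6 and 70.9 CPM) and *Thbs4* (24.4 and 58.2 CPM), reached 50 CPM in cells at 0 only. The shares above therefore describe the genes counted and are no test. *Col1a2* stood at 207 CPM in cells with *Myod1* and 422 CPM in cells at 0 (log2 ratio -1.03, -1.17 to -0.88), and *Col1a1* at 232 and 432 CPM (-0.90, -1.04 to -0.76). *Gsn*, the actin-severing gelsolin that is abundant in fibroblasts, was 947 and 1539 CPM (-0.70), *Dcn* 783 and 1225 CPM (-0.65), *Pcolce*, a procollagen processing enhancer, 111 and 175 CPM (-0.65), *Col3a1* 90.5 and 163 CPM (-0.85), and *Cldn5* had a log2 ratio of -0.63. *Abi3bp* (-0.60) and *Tspan13* (-0.60) completed the named genes.

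A single fibroblast-like cell at 0 *Myod1* UMIs, with 38262 UMIs in total, was 1 of 3 cells at 0 called doublets. It held 51.3% of the *Col1a1* UMIs and 49.6% of the *Col1a2* UMIs of all cells at 0. Without it the log2 ratio was 0.10 for *Col1a1*, -0.08 for *Col1a2* and -0.50 for *Dcn*. *Gsn* and *Col3a1* remained past 1.5-fold without the cell that held most of each, at -0.64 and -0.70. When each of the 21 genes was recomputed without the cell that held most of it, 8 remained past 1.5-fold.

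Within the largest cluster 352 cells with *Myod1* were set against 118 at 0, with medians of 12743.5 and 7119 UMIs. Of 1727 genes, 6 were higher (0.347%) and 5 lower (0.29%). The higher genes were *Ubxn6*, *Baiap2* and *H2-DMa* as over all cells, and *Tnxb*, *Exosc5* and *Tmtc2*, none above 100 CPM. The lower genes were *Mustn1*, *Anapc16*, *Pura*, *Tpm2*, the beta-tropomyosin gene (210 and 340 CPM, log2 ratio -0.70, -0.88 to -0.51), and *Dstn*, an actin-depolymerising factor (136 and 205 CPM, -0.59). One cell at 0 held 32.7% of the *Tpm2* UMIs and 33.3% of the *Mustn1* UMIs, and without the top cell the ratios were -0.15 and -0.56. *Dstn* was at -0.38 without its top cell, and 2 of the 5 lower genes remained past 1.5-fold. The collagen genes that led the comparison over all cells were near 0 here, at 0.06 for *Col1a2*, 0.15 for *Col1a1* and 0.03 for *Dcn*. At the minimum of 20 UMIs used for gene lists below, 13.3% of all genes in this cluster were past 1.5-fold higher and 9.65% lower.

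**Figure D4:**
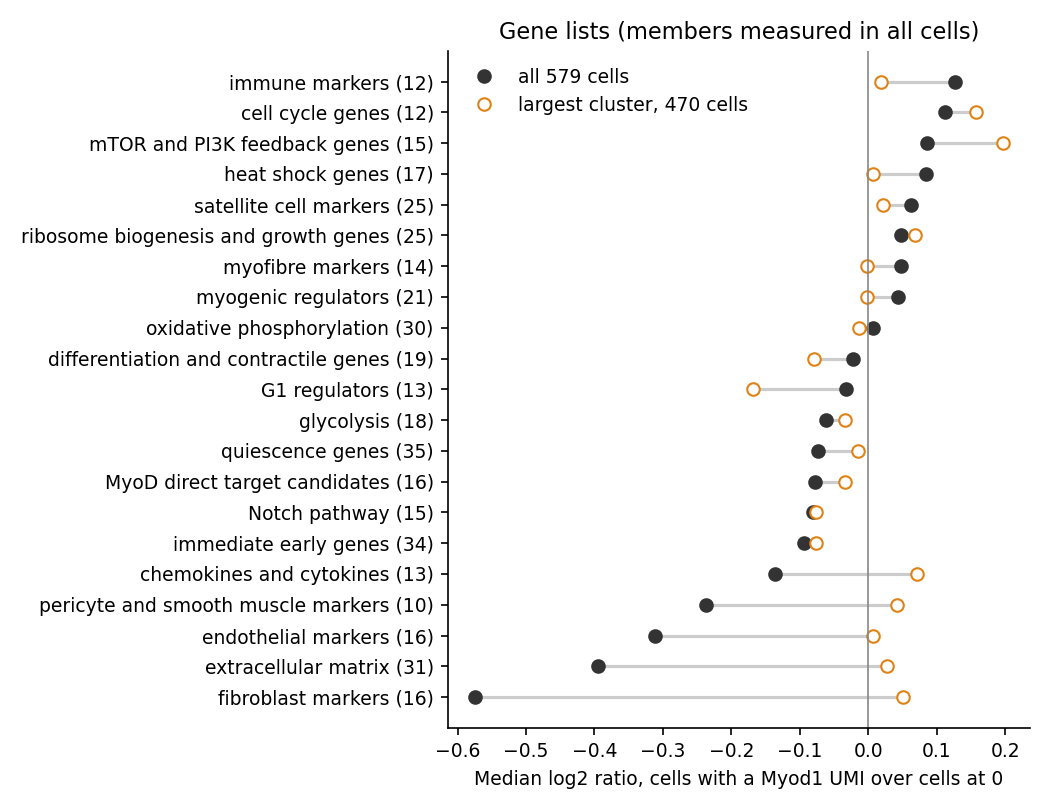
Median log2 ratio of cells with a *Myod1* UMI over cells at 0 for each gene list with at least 10 measured members, over all 579 cells (filled) and in the largest cluster (open), with the number of members measured over all cells in brackets. Fibroblast markers stand at -0.57 over all cells and at 0.05 in the largest cluster, while immediate early genes stand at -0.09 and -0.08.

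Among the genes that mark activation, the AP-1 genes were not higher in cells with *Myod1*. *Fos* per cell ran from 1041 through a median of 2907 to 15586 CPM in cells with *Myod1* and from 1150 through 2958 to 16336 CPM in cells at 0. Both sets covered almost the same range, and every cell of either set held *Fos*. These included all 109 cells of the 3 other clusters, where *Fos* was 3083 CPM against 3404 CPM in the largest. The part of free RNA in these *Fos* levels was not tested. Summed, *Fos* was 3308 and 3529 CPM (log2 ratio -0.09, -0.14 to -0.05). *Jun* was 387 and 426 CPM (-0.14, -0.27 to -0.01), and *Egr1*, a further immediate early gene, 957 and 965 CPM (-0.01, -0.10 to 0.07). Over the alternatives tried the log2 ratio of *Fos* stayed between -0.14 and -0.01 and that of *Jun* between -0.26 and -0.12.

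Gene lists were counted over members with at least 20 UMIs, a minimum at which 9.35% of all 9177 genes were past 1.5-fold higher and 10.4% lower in cells with *Myod1*. The counts below are read against these shares. Of 34 immediate early genes measured, 0 were past 1.5-fold higher and 2 lower, *Klf10* (22.2 and 41.1 CPM) and *Egr3*, with a median log2 ratio of -0.09 beside -0.01 over all genes tested. *Btg2*, an antiproliferative early gene, was 793 and 954 CPM (-0.27), and *Gadd45g*, of the stress response, 356 and 465 CPM (-0.38) over all cells but 0.00 in the largest cluster. Of 17 heat shock genes none was past 1.5-fold, with a median of 0.08, and *Hspe1*, the mitochondrial co-chaperonin, stood at 3212 and 2972 CPM (0.11). Chemokine and cytokine genes had 0 higher and 2 lower of 13, with a median of -0.14 over all cells and 0.07 in the largest cluster.

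Quiescence genes were near even. Of 35 measured, 0 were past 1.5-fold higher and 3 lower, *Foxo3*, *Rb1* and *Tek*, each under 13 CPM in both sets, with a median of -0.07. *Cd34*, a surface sialomucin of quiescent satellite cells and of endothelium, was 139 and 174 CPM (-0.33, -0.54 to -0.11) over all cells and -0.06 in the largest cluster. *Meg3*, an imprinted long non-coding RNA, was 2008 and 2189 CPM (-0.12), and *Rgs2*, a regulator of G-protein signalling, 110 and 116 CPM (-0.07).

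Satellite cell markers were likewise close in both sets. *Pax7* was 149 CPM in cells with *Myod1* and 137 CPM in cells at 0 (0.12, -0.11 to 0.36), and *Myf5* 44.6 and 40.3 CPM (0.15, -0.28 to 0.59). In full counts 328 cells held both *Myod1* and *Pax7*, 89 *Myod1* alone, 103 *Pax7* alone and 59 neither. *Pax7* was counted in 78.7% of cells with *Myod1* and 63.6% of cells at 0, and after thinning in 43.4% and 38.3%. *Myf5* was counted in 41.0% and 27.2%, and after thinning in 11.8% and 14.8%, so that the order turned with depth. Of 25 markers, 1 was past 1.5-fold higher, *Sdc3*, and 1 lower, *Cxcr4*, both under 10 CPM, with a median of 0.06. *Asb5* was 448 and 372 CPM (0.27, 0.13 to 0.41) and *Cd82*, a tetraspanin, 505 and 453 CPM (0.16).

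Of the differentiation factors, *Myog* and *Myf6* were scarce. *Myog* UMIs were counted in 24 cells with *Myod1* (5.76%) and in 6 cells at 0 (3.70%), with levels of 5.48 and 4.48 CPM (log2 ratio 0.29, -0.97 to 1.83), and *Myf6*, which is expressed in fibres, in 2 and 3 cells. Of 19 differentiation and contractile genes measured, 1 was past 1.5-fold higher, *Ttn* with 21 UMIs in all, and 1 lower, *Actc1* with 23, with a median of -0.02. Transcripts of fibres were counted in most cells of both sets: *Acta1* in 90.2% of cells with *Myod1* and 82.7% of cells at 0, and *Ckm*, the muscle creatine kinase, in 75.1% and 62.3%. After thinning these shares were 62.4% and 59.9% for *Acta1* and 35.7% and 35.8% for *Ckm*. Myofibre markers had 2 of 14 higher and 0 lower (median 0.05). *Ckm* was 138 and 147 CPM (-0.09) and *Tnni2*, a fast-fibre troponin, 270 and 237 CPM (0.19, 0.02 to 0.37), but -0.01 in thinned counts. *Mki67*, which marks cycling cells, had UMIs in 4 of 417 and 1 of 162 cells.

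Growth and metabolic lists were even as well. Ribosome biogenesis and growth genes had 0 of 25 past 1.5-fold either way and a median of 0.05, with *Odc1*, the first enzyme of polyamine synthesis, at 219 and 193 CPM (0.18). Oxidative phosphorylation had 0 higher and 1 lower of 30 (median 0.01), and glycolysis 0 of 18 either way (median -0.06). Candidate direct targets of MyoD had 0 higher and 1 lower of 16 (median -0.08). Over all cells, 8 of 16 fibroblast markers were past 1.5-fold lower (median -0.57), as were 9 of 31 matrix genes (-0.39) and 3 of 16 endothelial markers (-0.31). In the largest cluster the medians were 0.05, 0.03 and 0.01. Tendon markers had 2 of 5 lower (median -0.28) and pericyte and smooth muscle markers 1 higher and 3 lower of 10 (-0.24), and in the largest cluster -0.02 and 0.04. The 2 lower tendon genes, *Tnmd* and *Thbs4*, were at 0.34 and 0.23 without the cell at 0 that held most of each. Immune markers had 1 higher and 1 lower of 12 (median 0.13), and *Lyz2*, the lysozyme of myeloid cells, stood at 835 and 656 CPM (0.35, 0.24 to 0.45). 17 immune-like cells held *Myod1* and 2 did not.

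Cells of the largest cluster with much *Myod1* for their depth were also compared with those with little, a division made after the data were seen. It cuts a continuous level: 75 cells had at least 400 *Myod1* CPM, 181 had under 100 CPM, of which 118 had none, and 44 and 34 cells lay within 20% of the lower and upper limit. Median depths were nearer to each other than before, 11755 UMIs in the high and 9908 in the low range. Summed *Myod1* was 859 CPM (800 to 922) and 38.4 CPM (30.6 to 47.6).

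Of 1753 genes, 14 were past 1.5-fold higher (0.799%) and 24 lower (1.37%) in the cells of high *Myod1*. Those at 100 CPM or more in the higher range, named after their values were seen, were *Asb5* (668 and 438 CPM, log2 ratio 0.61, 0.46 to 0.76), *Oat*, ornithine aminotransferase (111 and 68.6 CPM, 0.69), and *Hk2*, a hexokinase (127 and 83.7 CPM, 0.60). Lower were *Ccl21a*, *Ccnd3*, cyclin D3 (72.2 and 112 CPM, -0.63), and *Sik1*, a salt-inducible kinase (66.8 and 102 CPM, -0.62). *Ccl21a* shares its symbol and near-identical sequence with other gene copies, and 1 cell held 47.5% of its UMIs in the low range, without which the log2 ratio was -0.25 in place of -1.16. Without the cell that held most of each gene, *Asb5* (0.54) and *Hk2* (0.51) were no longer past 1.5-fold and *Oat* was (0.63). Over all, 8 of the 14 and 16 of the 24 remained past it.

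Of the genes of the Notch pathway, which signals between neighbouring cells, *Hes1* and *Notch3* were past 1.5-fold lower in the cells of high *Myod1*. Both reached the minimum of 50 CPM in the low range only, so that their being counted is a description and no test. *Hes1* was 32.8 CPM in the high and 66.3 CPM in the low range (log2 ratio -1.01, -1.63 to -0.44), and it was counted in 20 of 75 cells (26.7%) and 73 of 181 cells (40.3%). *Notch3*, a receptor, was 36.1 and 64.9 CPM (-0.85, -1.44 to -0.29). Without the top cell of each these ratios were -0.86 and -0.83. At the list minimum of 20 UMIs, 4 of 11 Notch pathway genes measured were past 1.5-fold lower and 0 higher, with a median of -0.27, where 12.2% of all 6419 genes were lower and 6.47% higher. The other two were *Dtx4* (-0.71, -1.47 to 0.00) and *Numb* (-0.91, -2.23 to 0.22), under 40 CPM. *Heyl*, a Notch target of satellite cells, was 41.6 and 54.0 CPM (-0.38, -0.94 to 0.16), and the intervals of *Numb* and *Heyl* include no difference. Between all cells with a *Myod1* UMI and cells at 0, the Notch list had 1 higher and 1 lower of 15 (median -0.08). For the same comparison within the largest cluster it had 1 higher and 0 lower of 13 (median -0.08).

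Of 33 immediate early genes measured, 0 were past 1.5-fold higher and 2 lower, *Klf10* (-1.10, -2.04 to -0.26) and *Socs3* (-0.68, -1.27 to -0.12), with a median of -0.11, and of 17 heat shock genes none was past it either way (median -0.06). Without the cell that held most of it, *Socs3* was at -0.44. *Fos* was 2782 and 3486 CPM (log2 ratio -0.33, -0.39 to -0.26), *Junb* 1344 and 1658 CPM (-0.30), *Jun* 356 and 432 CPM (-0.28) and *Hspa1a* 1888 and 2675 CPM (-0.50, -0.58 to -0.43). Per cell, *Fos* ran from 1421 through 2537 to 9680 CPM in the high range and from 1150 through 3049 to 16336 CPM in the low range, so that the ranges overlapped and the highest cells were in the low range. *Egr1* (-0.06, -0.17 to 0.06), *Atf3* (-0.09, -0.19 to 0.02), *Hspa1b* (-0.11, -0.31 to 0.10) and *Pax7* (124 and 145 CPM, -0.23, -0.55 to 0.08) had intervals that include no difference. *Mt2*, a metallothionein, was 4463 and 3430 CPM (0.38), and *Eif4a1*, a translation initiation helicase, 871 and 666 CPM (0.39). *Runx1*, a transcription factor of activated satellite cells, was 106 and 79.1 CPM (0.42, 0.05 to 0.79). Candidate direct targets of MyoD had 0 higher and 3 lower of 13 (median -0.03), where 12.2% of all genes were lower. The 3 were *Musk*, *Ccnd3* and *Mef2c*. Ribosome biogenesis and growth genes had 1 higher and 1 lower of 25 (median 0.13).

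The same rule in iPax3 cells gave a different picture, set beside the adult cells without a test between 1 library and another. *Myod1* UMIs were counted in 738 of 2931 iPax3 cells (25.2%, 23.6 to 26.8%), at a median of 11716 UMIs close to the 10765 of adult cells, and in 9.62% after thinning against 41.6%. The level was 26.4 CPM (24.9 to 28.0) against 216 CPM (206 to 227), and the highest count 7 UMIs against 34. Of 1748 genes, 61 were past 1.5-fold higher (3.49%) and 0 lower (0%) in iPax3 cells with *Myod1*, whose median depth was 12695 UMIs against 11379 at 0. *Myog* was 237 and 80.7 CPM in iPax3 cells with and without *Myod1* (log2 ratio 1.56, 1.48 to 1.64). Over all adult cells its ratio was 0.29 with an interval from -0.97 to 1.83, which includes the iPax3 value. Within the largest adult cluster it was 1.46 (-0.51 to 4.56), from 32 and 2 UMIs. Between the high and low *Myod1* ranges it was -1.55, with *Myog* counted in 1 of 75 and 7 of 181 cells. *Des* had a log2 ratio of 1.28 in iPax3 and 0.08 in adult cells, *Mef2c*, a muscle transcription factor, 1.48 and -0.30, and *Myl4*, an embryonic myosin light chain, 1.89 and 0.20. Of 28 differentiation and contractile genes measured in iPax3 cells, 26 were past 1.5-fold higher (median 1.36), beside 1 of 19 in adult cells. At the same minimum of 20 UMIs, 7.84% of all genes were higher and 4.47% lower in iPax3 cells with *Myod1*.

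**Figure D5:**
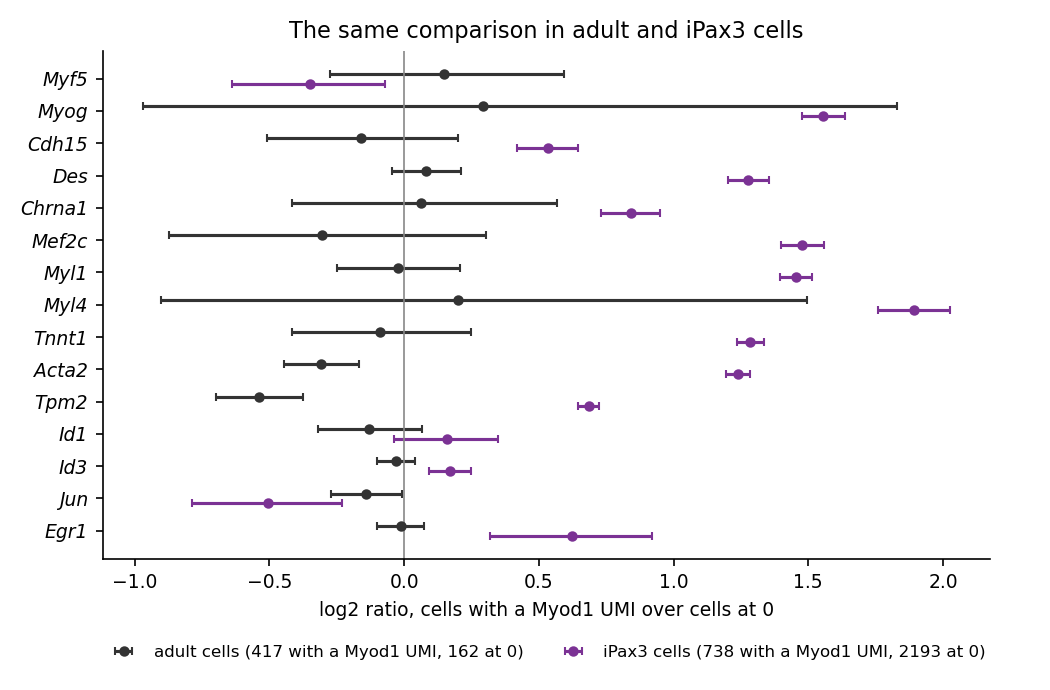
Log2 ratio of cells with a *Myod1* UMI over cells at 0 for 15 genes in adult cells and in iPax3 cells, with exact 95% intervals for counting error. In iPax3 cells *Myog*, *Des*, *Mef2c* and the 5 contractile genes drawn stand to the right at 0.68 to 1.89, while in adult cells these genes lie between -0.54 and 0.29; not drawn are *Actc1*, *Ttn* and *Tnnt2*, with 23, 21 and 8 adult UMIs, at 1.27, 1.28 and 1.22 in iPax3 and -1.91, 2.03 and 0.51 in adult cells.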

How the data were processed

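RNA of single adult and iPax3 cells was captured with a 10x 3' kit, per the labels' protocols. The authors ran CASAVA 1.8 and Cell Ranger 2.2.0 on mm10, per the submitters' processing notes, and deposited UMI counts for every barcode. The annotation was not given in the sources used here. The authors' deposited table holds, for each of 2 clusters, a log2 fold change over the other.

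Cells were barcodes with 500 UMIs or more, under 10% mitochondrial UMIs, and a total no lower than 10% of percentile 99 of the top 3000. Scrublet called 23 adult cells doublets (20 with *Myod1*), which were kept. Adult and iPax3 cells shared 1 barcode. Clusters came from scanpy 1.11.5 (2000 variable genes, 20 components, 15 neighbours, Leiden at 0.2, then 0.6) without *Myod1*, and were named by at least 3 list markers at 2-fold. *Myod1* was left out of CPM totals in ratios. Intervals are exact (Clopper-Pearson, Poisson, conditional binomial). Only those of ratios were tested on simulated data. The simulated cells differed by counting alone, so that test does not cover genes spread more widely between cells. Thinning was drawn once.

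The planned comparison within satellite-like clusters was made in the largest cluster, which could not be named. Named genes were the 10 largest ratios each way past 1.5-fold at 100 CPM or more, 7 label and myogenic genes, and up to 4 per list. Members and the 24 lists were chosen with earlier results of these data known. Bulk libraries were not used here.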

Additional observations from a re-analysis of the deposited data

Results flagged for a closer look

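*Myod1* UMIs appeared in barcodes that hold no cell. In the 85159 barcodes of 1 to 100 UMIs the level was 153 CPM, above the 6.11 CPM that a count of 0 would allow (3 UMIs of 491093). It was 205 CPM in those of 1 to 10 UMIs and 103 CPM in those of 11 to 50.

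The matrix deposited for the second iPax3 sample held all 579 adult barcodes. With 69.8% of their UMIs there and 0 of 1341164 entries above those of the adult matrix, 361 of them (62.3%) held a *Myod1* UMI. Of the 56 cells that no longer held one, 42 had a single *Myod1* UMI in the adult matrix, and no cell gained one.

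The same matrix held the 2931 iPax3 cells at a median of 42580 UMIs, against 11716 in the first iPax3 matrix. There 2090 of them (71.3%) held a *Myod1* UMI, against 738 (25.2%). None of these values enters the comparisons above, and each lies above what a count of 0 would allow.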

How the results depend on the processing

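No paired analysis was possible because the adult cells were 1 sample and no result came from a test. The share of cells with a *Myod1* UMI, 72.0%, was 41.6% in thinned counts, 47.0% at 2 or more UMIs, 80.8% with the cell filter at 20% and 62.3% in the second matrix (added after seeing the data). In the largest cluster, under 5% mitochondrial UMIs or without doublets it stayed within the interval.

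The 4 higher and 21 lower genes were 12 and 48 with cells at 0 weighted by depth quartile, and 28 and 69 in thinned counts with members fixed. They were 25 higher with members chosen again, of which 0 were shared with the 4. There were 8 higher without doublets, 5 lower in the largest cluster, and 195 and 380 at a minimum of 10 CPM and 10 UMIs. Weighting within the largest cluster gave 37 higher and 48 lower in place of 6 and 5, and its deepest quartile held 5 cells at 0. Thinning gave 55 and 60 in place of 14 and 24 between high and low *Myod1*, of which 2 and 6 were shared. Fewer UMIs per gene remain after thinning, and the cause of the other differences was not tested. Of 663 values of 74 named genes, 545 stayed within their interval and 65, of 37 genes, had the opposite sign. Of these, 4 were of genes past 1.5-fold: in the largest cluster *Col1a2* (0.061), *Col1a1* (0.145) and *Dcn* (0.031), and without doublets *Col1a1* (0.094). The others were of genes no farther than 0.38 from 0 on the log2 scale, among them, in thinned counts with members fixed, *Myf5* (-0.36), *Acta2* (0.11) and *Cd82* (-0.04). Without doublets *Col1a2* was -0.09.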

Other observations

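A few genes under 50 CPM, most of them of nutrient and growth factor signalling, were past 1.5-fold within the largest cluster. They were chosen for their values. *Igf1*, an insulin-like growth factor, was 22.0 CPM in cells with *Myod1* and 9.52 CPM in cells at 0 (log2 ratio 1.21, 0.23 to 2.37), from 121 and 9 UMIs. *Sesn2*, a stress-induced inhibitor of mTORC1, was 13.6 and 5.29 CPM (1.36, 0.08 to 3.03), and *Tsc22d3*, a glucocorticoid-induced gene, 27.6 and 44.4 CPM (-0.69, -1.19 to -0.16). *Klf2*, from the immediate early list, was 40.7 and 21.2 CPM (0.94, 0.28 to 1.68). In all, 3 of 15 genes of the mTOR and PI3K feedback list were past 1.5-fold higher and 1 lower, with a median of 0.20. These counts were near the shares of all 8518 genes of at least 20 UMIs, 13.3% higher and 9.65% lower. Between the high and low *Myod1* ranges, *Igf1* and *Sesn2* were measured and not past 1.5-fold, while *Tsc22d3* was at -0.71. *Sesn2* rested on 5 UMIs in cells at 0. Median depths of these cells were 12743.5 and 7119 UMIs, and the part of depth was not tested for single genes at these counts.

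An immune-like cell held 24 *Myod1* UMIs of 36321 in total, with 7 *Pax7* and 1 *Myf5* UMI, and was not called a doublet. Of the 20 cells with *Myod1* that were called doublets, 17 lay in the largest cluster, and 1 of these held 24 *Myod1* UMIs.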
